A study of Homo sapiens with 9 samples.

Results

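Mitochondrial DNA encodes 37 of the 58684 genes counted in these libraries, chosen as every gene whose symbol starts with MT-. They are 13 mRNAs for subunits of the respiratory chain and ATP synthase, 2 ribosomal RNAs and 22 transfer RNAs. After a filter on low counts 24 of the 37 could be tested, namely all 13 mRNAs, both rRNAs and 9 of the 22 tRNAs. On the plus strand of the reference lie 12 mRNAs, both rRNAs and 14 tRNAs, and on the minus strand lie 1 mRNA, MT-ND6, and 8 tRNAs.

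RNA was sequenced from Huh7, an established human hepatocellular carcinoma line, in 3 groups of 3 libraries. All cells were infected with lentivirus from the pLKO.1 vector for a short hairpin RNA and were kept under puromycin as stable pools, and all were grown in DMEM with serum. Cells called shControl received a control hairpin, and those called shIMPDH1 and shIMPDH2 received hairpins against IMPDH1 and IMPDH2, isozymes that commit purine synthesis to guanine nucleotides. How many hairpins served each gene is not stated, so an effect of a hairpin and an effect of its target cannot be told apart. How the replicate cultures were kept is not stated either, and the tests see only the spread among these libraries, which may be technical.

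Mitochondrial DNA is a small circle that is copied into RNA from both strands as long precursors. Reference-plus genes are read from the heavy strand, and MT-ND6 and the minus tRNAs from the light strand. The tRNAs that lie between most mRNAs are cut out to release the mRNAs and rRNAs, which then receive poly(A) tails, while MT-ND6 mRNA is known to carry little or no tail and the rRNAs carry short ones. The strand-specific library kit selects polyadenylated RNA, was not designed to capture tRNAs, and captures short-tailed RNAs to an unknown degree. In a bulk sample, fewer mitochondrial genomes per cell and less RNA per genome cannot be told apart.

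The 3′ ends of the mRNAs show why the tails matter. In 6 of the 13 mRNAs the annotated frame stops before its last codon is whole, and the tail supplies the missing A bases of a stop codon. The last 15 bases of 3 such mRNAs and of the minus-strand mRNA are given 5′ to 3′ on the coding strand, from GENCODE 29 transcripts on GRCh38, with the last whole or partial codon in capitals.
MT-ND3, chrM:10059-10404, plus: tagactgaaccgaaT
MT-ND4, chrM:10760-12137, plus: ccgggttttcctctT
MT-ND1, chrM:3307-4262, plus: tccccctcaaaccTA
MT-ND6, chrM:14149-14673, minus: gctcgggggaatAGG
MT-ND3 and MT-ND4 end in a lone T and MT-ND1 in TA, whereas MT-ND6 ends in a whole codon. The other mRNAs with a partial last codon were MT-ND2, MT-CO3 and MT-CYB.

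Neighbouring frames also share bases, and 2 pairs of mRNAs are made as single molecules. The junctions are shown because the authors' counting had to assign reads to both genes, with the start codon of the downstream frame and the stop codon of the upstream frame in capitals.
MT-ATP8 to MT-ATP6, chrM:8521-8578, plus: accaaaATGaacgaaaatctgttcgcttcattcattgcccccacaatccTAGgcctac
MT-ND4L to MT-ND4, chrM:10754-10772, plus: actccaATGcTAAaactaa
MT-ATP8 and MT-ATP6 share 46 bases and MT-ND4L and MT-ND4 share 7. Reads on shared bases can be left out or given to either gene, and the choice made in these counts is not known.

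Library totals ran from 44560837 to 58370328 counts, at which 3 counts are worth 0.0519 to 0.0674 CPM (the usual scale of counts per library size, here after TMM scaling). The target IMPDH1 was at 62.5 to 62.9 CPM in shControl and 23.5 to 25.3 in shIMPDH1, and IMPDH2 was at 226 to 230 CPM in shControl and 109 to 110 in shIMPDH2. The other isozyme was higher in each knockdown, with IMPDH2 at 271 to 277 CPM in shIMPDH1 and IMPDH1 at 66.4 to 73.1 in shIMPDH2. All 11 hepatocyte markers passed the filter, with summed levels of 37917 to 40022 CPM in shControl, 42810 to 44122 in shIMPDH1 and 45929 to 47121 in shIMPDH2. Single markers differed in direction: ALB, AFP and APOB carried most of the sum, while KRT8 was at 2904 to 2971 CPM in shControl and 2495 to 2543 in shIMPDH1, and HNF4A at 324 to 332 in shControl and 306 to 312 in shIMPDH2. Of 3 biliary markers, KRT7 was at or near 0 and the sum was 55.5 to 57.3 CPM in shControl, 32.5 to 32.9 in shIMPDH1 and 23.7 to 25.2 in shIMPDH2. The sum of 3 endothelial markers, nearly all of it PECAM1, was 12.3 to 13.5, 5.27 to 6.69 and 6.82 to 8.03 CPM in the same order. The 3 leukocyte markers summed to at most 0.2 CPM and HBB was at 0. The part of these shifts in the values that follow was not tested. Between 2 libraries of a group the mean chi-square per gene was 5.93 and 7.23 for the pairs that hold shControl replicate 1, 3.92 and 4.04 for the pairs that hold shIMPDH2 replicate 1, and 1.81 to 2.46 for the others. These 2 libraries stood apart in mitochondrial RNA as well, and the results below are given with and without them where it matters.

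The 13 mRNAs took 4.22%, 4.996% and 5.19% of all counts in the 3 shControl libraries, 4.71%, 4.83% and 4.72% in shIMPDH1, and 3.97%, 4.09% and 4.03% in shIMPDH2. Every shIMPDH2 library lay below every library of both other groups, and shControl replicate 1 was the lowest of the others. The mean difference from shControl was -0.767 percentage points in shIMPDH2 and -0.044 in shIMPDH1, and shIMPDH2 was 0.723 points below shIMPDH1. The exact two-sided permutation p was 0.1, 1 and 0.1 in that order, and 3 libraries against 3 cannot give less than 0.1. Without shControl replicate 1 the difference of shIMPDH1 from shControl was -0.336 points, and without shControl replicate 3 it was 0.149.

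The 2 rRNAs went the other way. They took 0.332%, 0.356% and 0.358% of counts in shControl, 0.383%, 0.419% and 0.427% in shIMPDH1, and 0.423%, 0.421% and 0.384% in shIMPDH2. Both knockdowns lay wholly above shControl and overlapped each other (exact permutation p = 0.1, 0.1 and 1 for shIMPDH1 against shControl, shIMPDH2 against shControl and shIMPDH2 against shIMPDH1).

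**Figure D1:**
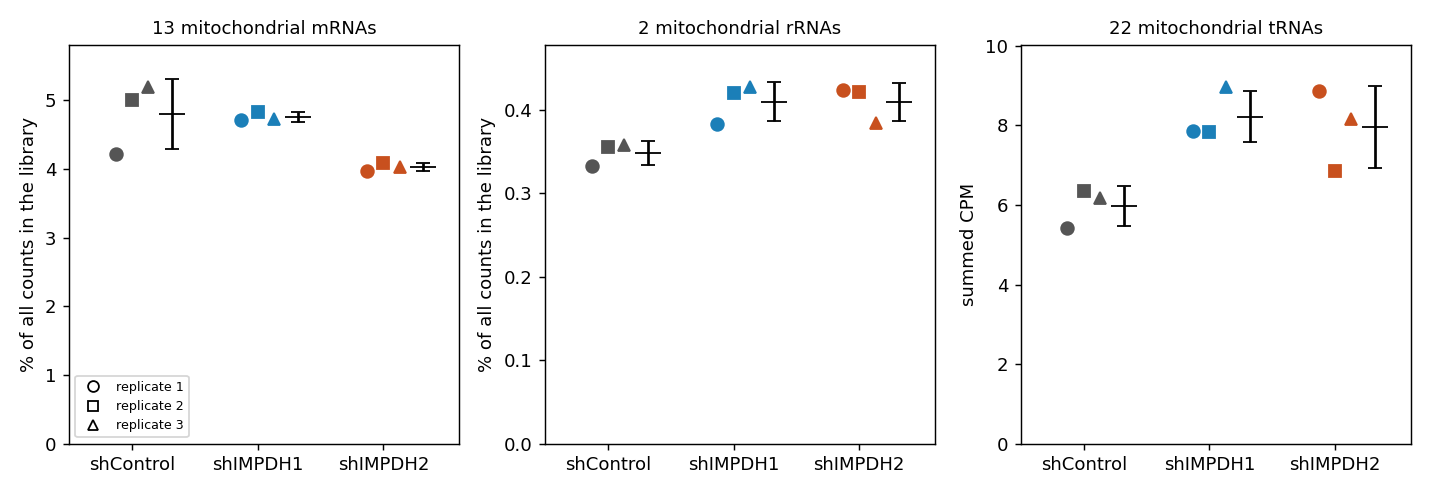
Share of all counts on the 13 mRNAs (left) and the 2 rRNAs (middle), in percent, and summed CPM of the 22 tRNAs (right), for 3 libraries of each group; symbols are replicates, and bars show the mean and SD. The mRNA share is lowest in the 3 shIMPDH2 libraries, at 3.97% to 4.09%, while rRNAs and tRNAs are lowest in shControl.

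Compared per kb of gene, levels differed widely among the mRNAs of shControl. MT-CO2 and MT-CO1, subunits of cytochrome c oxidase (complex IV), stood at 7950 ± 986 and 7634 ± 738 CPM per kb (SD, n = 3), followed by MT-ND4 of NADH dehydrogenase (complex I) at 7098 ± 1010 and MT-CO3 at 6985 ± 830. MT-ATP6 of ATP synthase stood at 5401 ± 904 and MT-ND4L at 4495 ± 550. MT-ND2 followed at 2335 ± 332, MT-CYB of complex III at 2228 ± 214, MT-ND5 at 2012 ± 228 and MT-ATP8 at 1955 ± 187 CPM per kb. MT-ND3 stood at 1291 ± 126 and MT-ND1 at 1178 ± 95.0, and MT-ND6 was lowest at 200.2 ± 27.2. The SDs hold a shift that the genes of a library share, since shControl replicate 1 was low for all plus-strand mRNAs. Within libraries, neighbours in this order kept it in all 3 shControl libraries except MT-ND4 with MT-CO3, MT-ND2 with MT-CYB and MT-ND5 with MT-ATP8, which changed places in 1 library.

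Levels per kb did not follow map order: across the 12 plus-strand mRNAs, which share their precursor and their libraries, Spearman's rho with position was -0.03 in each group. The overlapping frames were unequal in raw counts, which are not scaled by gene length. There were 7.11, 7.47 and 7.37 MT-ND4 counts per MT-ND4L count and 8.25, 9.00 and 9.90 MT-ATP6 counts per MT-ATP8 count in shControl. Per kb the gaps were smaller, at 7098 CPM per kb for MT-ND4 and 4495 for MT-ND4L, and 5401 for MT-ATP6 and 1955 for MT-ATP8. MT-RNR2, the large ribosomal RNA, stood at 1963 ± 118 CPM per kb in shControl and MT-RNR1, the small one, at 459 ± 11.4.

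**Figure D2:**
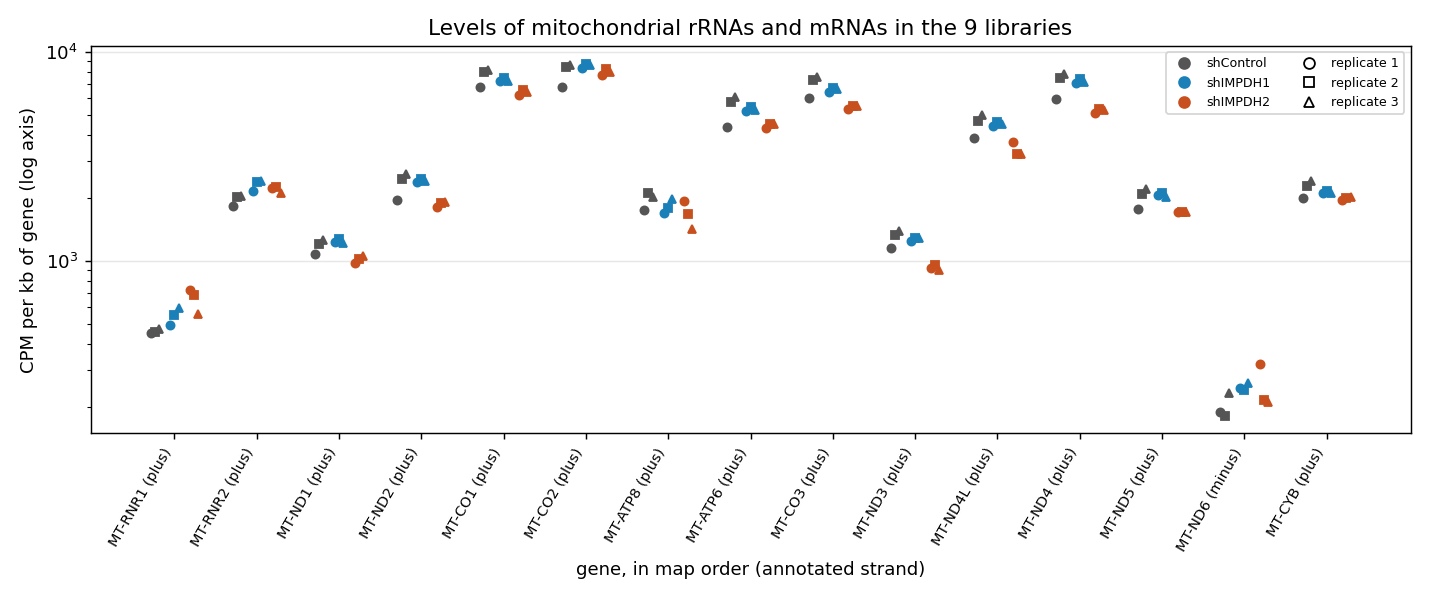
CPM per kb of gene (log axis) for the 2 rRNAs and 13 mRNAs in map order, with the annotated strand, in 9 libraries coloured by group. MT-ND6, on the minus strand, is the lowest mRNA in all 9 libraries, and the shIMPDH2 points lie low for most plus-strand mRNAs.

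Most mRNAs of complexes I and IV and of ATP synthase, and MT-CYB of complex III, were lower on average in shIMPDH2 than in shControl. Against shControl, 11 of the 13 mRNAs fell, MT-ND6 rose, and MT-CO2 was not called (edgeR, adjusted p under 0.05), where 19.9% of all 17396 genes tested fell and 18.6% rose. The libraries of both groups did not overlap for 8 of the 13 mRNAs, all lower in shIMPDH2, against 46.7% of all genes tested in either direction. The median log2 fold change of the 13 mRNAs was -0.26 and that of all genes 0.01.

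Complex I, which takes electrons from NADH, has 7 subunits made in mitochondria. MT-ND3 was at 398, 460.2 and 482 CPM in shControl and 319, 330 and 314 in shIMPDH2. All 3 shIMPDH2 libraries were below the lowest control, and MT-ND3 fell by 0.48 on the log2 scale (SE 0.041, edgeR adjusted p = 3.37e-10), or 1.39-fold. MT-ND4 was at 8204, 10298 and 10839 CPM in shControl and 6992, 7358 and 7236 in shIMPDH2. These groups did not overlap, although shControl replicate 1 lay closer to the knockdown than to the other controls, and MT-ND4 fell by 0.44 (SE 0.054, adjusted p = 2.11e-07). MT-ND4L, the partner of MT-ND4 on 1 molecule, was at 1154, 1379 and 1472 CPM and then 1101, 963 and 959, a fall by 0.41 (SE 0.054, adjusted p = 8.08e-07) in which shIMPDH2 replicate 1 came within reach of the lowest control. MT-ND2 fell by 0.32, MT-ND5 by 0.23 and MT-ND1 by 0.21, each with groups that did not overlap.

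In complex IV, which passes electrons to oxygen, the 3 subunits parted. MT-CO3 was at 4734, 5745 and 5949 CPM in shControl and 4159, 4335 and 4300.1 in shIMPDH2, with no overlap, and fell by 0.36 on the log2 scale (SE 0.047, edgeR adjusted p = 6.04e-07). MT-CO1, the catalytic subunit, was at 10469, 12284 and 12564 CPM and then 9579, 10076 and 9932, and fell by 0.26 (SE 0.040, adjusted p = 1.18e-05). MT-CO2, which receives electrons from cytochrome c, was at 4664, 5750.5 and 5898 CPM in shControl and 5271, 5628 and 5467 in shIMPDH2. Its knockdown libraries lay inside the control range, and the log2 fold change stood at 0.00 (SE 0.049, adjusted p = 0.951). Without shControl replicate 1, MT-CO2 was -0.10 (adjusted p = 0.00212), and MT-ND3 and MT-ND4 were both -0.56.

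MT-CYB, the only complex III subunit made in mitochondria, was at 2271, 2611 and 2745 CPM in shControl and 2227, 2289 and 2301 in shIMPDH2. The groups overlapped at shControl replicate 1, and MT-CYB fell by 0.16 (SE 0.039, edgeR adjusted p = 0.00172). MT-ATP6, part of the proton channel of ATP synthase, was at 2979, 3914 and 4141 CPM and then 2937, 3059 and 3056, also with an overlap at shControl replicate 1, and fell by 0.29 (SE 0.062, adjusted p = 0.000560). MT-ATP8, from the same molecule, was at 361, 435 and 418 CPM and then 399, 345 and 294, with shIMPDH2 replicate 1 inside the control range, and fell by 0.22 (SE 0.068, adjusted p = 0.0103), but was not called without shControl replicate 2 (-0.16) or shIMPDH2 replicate 3 (-0.12). DESeq2 called 9 of the 13 mRNAs, all lower, and not MT-ATP8, MT-CYB or MT-ND6.

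In shIMPDH1 the plus-strand mRNAs did not pass the test. Against shControl, 1 of the 13 mRNAs rose, MT-ND6, and none fell, where 20.6% of all genes tested rose and 22.8% fell, and 51.7% had groups that did not overlap against 1 of the 13 mRNAs. The 12 others had log2 fold changes from -0.10 for MT-ATP8 to 0.11 for MT-CO2 (adjusted p = 0.0683), and the median over the 13 was 0.00, the same as over all genes. MT-ND4 was at 9742, 10173 and 9837 CPM and MT-CO1 at 11145, 11493 and 11221 in shIMPDH1, between the lowest and the highest control in both cases.

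This count rested on shControl replicate 1, which was the lowest control for each of the 12 plus-strand mRNAs. Without it 8 mRNAs were called lower and MT-ND6 higher in shIMPDH1, among them MT-CO3 at -0.18, MT-ATP6 at -0.16 and MT-CO1 at -0.14, and MT-ND4 went from 0.02 to -0.09 (edgeR adjusted p = 0.00199). Without shControl replicate 3, by contrast, 5 were called higher and none lower, and without shControl replicate 2 MT-CO2 alone was called (0.15). The SEs changed as well, for MT-ND4 from 0.054 to 0.023 without shControl replicate 1. The share of all genes called in these fits was not tallied, so these counts have no background beside them.

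The direct comparison of both knockdowns takes no fold change from the control values, but its SEs rest on the spread of all 9 libraries. MT-ND4 was at 9742 to 10173 CPM in shIMPDH1 and 6992 to 7358 in shIMPDH2, which is -0.46 on the log2 scale (SE 0.054, edgeR adjusted p = 6.46e-08), and MT-ND3 was at 430.4 to 445 and 314 to 330 CPM, also -0.46 (SE 0.041, adjusted p = 5.59e-10). Of the 13 mRNAs 9 were lower in shIMPDH2 and none higher, where 22.2% of all genes tested were lower and 21.7% higher. The groups did not overlap for 11 of the 13, against 51.5% of all genes in either direction. The 4 not called were MT-CO2 at -0.11 (adjusted p = 0.0805), MT-CYB at -0.09 (0.0597), MT-ATP8 at -0.12 (0.158) and MT-ND6 at 0.00 (0.982). MT-CO2 and MT-CYB were called lower without shControl replicate 1 or 3, and MT-ATP8 without shIMPDH2 replicate 1 (-0.24). With only the libraries of both knockdowns in the fit, 11 of the 13 mRNAs were called lower, among them MT-CO2 (-0.10, edgeR adjusted p = 0.000881) and MT-CYB (-0.08, adjusted p = 0.000958). Across the 9 called mRNAs the fold change ran from -0.46 for MT-ND4 to -0.19 for MT-CO1.

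**Figure D3:**
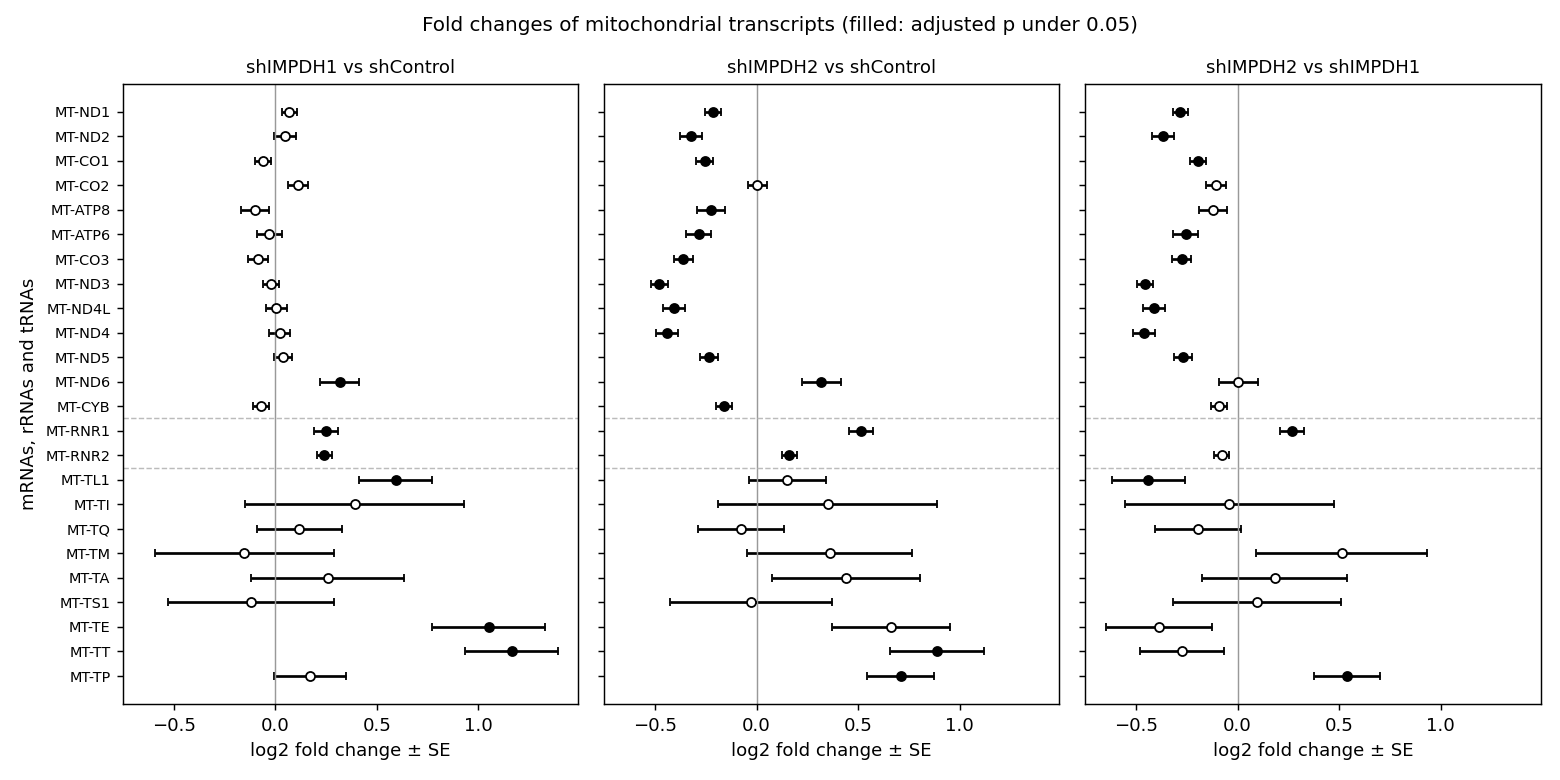
Log2 fold change with its SE for the 24 tested mitochondrial transcripts in 3 comparisons; filled points have an adjusted p under 0.05, and dashed lines part mRNAs, rRNAs and tRNAs. In both comparisons that involve shIMPDH2 most mRNAs lie below 0, while both rRNAs lie above 0 in either knockdown against shControl.

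The mRNAs did not fall by equal amounts, which shows in each one's share of the 13 mRNAs' counts and needs no scaling between libraries. MT-CO2 made up 11.2%, 11.4% and 11.2% of those counts in shControl, 12.1%, 12.3% and 12.3% in shIMPDH1, and 13.5%, 13.9% and 13.6% in shIMPDH2, so that all 3 groups were apart. MT-ND4 made up 19.7%, 20.4% and 20.6% in shControl, 20.6%, 20.8% and 20.6% in shIMPDH1, and 17.9%, 18.1% and 18.1% in shIMPDH2. The shIMPDH2 libraries were below all others here, and the same held for MT-ND3, with means of 0.929%, 0.917% and 0.804% in the 3 groups.

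MT-CYB went the other way in shIMPDH2, with 5.18% to 5.46% in shControl, 4.995% to 5.12% in shIMPDH1 and 5.64% to 5.74% in shIMPDH2. MT-CO3 was lower in both knockdowns, at a mean of 11.4% in shControl, 10.8% in shIMPDH1 and 10.7% in shIMPDH2. Summed by complex, the 7 subunits of complex I took 39.1% ± 0.444 (SD, n = 3) of mRNA counts in shControl, 40.1% ± 0.191 in shIMPDH1 and 36.8% ± 0.293 in shIMPDH2, and the 3 of complex IV took 47.1% ± 0.646, 46.5% ± 0.184 and 49.1% ± 0.394. MT-ND4 counts per 100 MT-CO1 counts were 78.4, 83.8 and 86.3 in shControl, 87.4, 88.5 and 87.7 in shIMPDH1, and 73.0, 73.0 and 72.9 in shIMPDH2. The shares of both complexes and this ratio parted the shIMPDH2 libraries from the other groups.

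Of the 13 shares, 4 were wholly higher and 3 wholly lower in shIMPDH2 than in shControl, 3 and 3 in shIMPDH1 than in shControl, and 3 and 3 in shIMPDH2 than in shIMPDH1. In the same order, the groups did not overlap in level for 46.7%, 51.7% and 51.5% of all genes tested. The counts of shares are near these values and are not set apart from them. A share of a fixed total falls when another rises, so the 13 shares are not independent. The smallest exact permutation p was 0.1, which became 0.205 after adjustment over the 39 comparisons of shares. Among the plus-strand mRNAs, the fold change had a Spearman's rho with map position of -0.24 in shIMPDH2 against shControl, -0.29 in shIMPDH1 against shControl and -0.06 in shIMPDH2 against shIMPDH1, over 12 mRNAs that share a precursor and libraries. All 6 mRNAs with a partial last codon fell in shIMPDH2 against shControl, by 0.16 (MT-CYB) to 0.48 (MT-ND3), and so did 5 of the 7 with a whole one, the exceptions being MT-CO2 and MT-ND6.

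MT-ND6, a complex I subunit and the only mRNA on the minus strand, moved apart from the rest. It was at 98.7, 95.2 and 121 CPM in shControl, 129, 126 and 137 in shIMPDH1, and 168, 113 and 110.3 in shIMPDH2. All shIMPDH1 libraries were above the controls, whereas in shIMPDH2 only replicate 1 stood clear of them. The rise was 0.32 on the log2 scale in shIMPDH1 (SE 0.096, edgeR adjusted p = 0.00880) and 0.32 in shIMPDH2 (SE 0.096, adjusted p = 0.00921). Without shIMPDH2 replicate 1 the second was 0.09 (adjusted p = 0.221), and without shControl replicate 2 neither passed (0.25, adjusted p = 0.0804, and 0.26, adjusted p = 0.0703). DESeq2 called neither (adjusted p = 0.208 and 0.220). Between the knockdowns the difference was 0.00 with all libraries and -0.22 (adjusted p = 0.00158) without shIMPDH2 replicate 1.

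Set against the 12 plus-strand mRNAs of its own library, MT-ND6 was at 2.38, 1.89 and 2.32 per 1000 counts in shControl, 2.75, 2.57 and 2.87 in shIMPDH1, and 4.32, 2.80 and 2.76 in shIMPDH2. Both knockdowns lay wholly above shControl. The mean log2 ratio was 0.32 higher in shIMPDH1 and 0.56 higher in shIMPDH2 (exact two-sided permutation p = 0.1 each), and the knockdowns overlapped with a difference of 0.24 (p = 0.4). Without shIMPDH2 replicate 1 the 0.56 became 0.35. Most plus-strand mRNAs, the denominator of this ratio, fell in shIMPDH2, where MT-ND6 in CPM overlapped shControl. Whether reads were counted by strand is not known, and MT-ND6 could hold reads of the opposite strand.

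The rRNAs build the mitochondrial ribosome that translates these mRNAs. MT-RNR1 (chrM:648-1601, plus) was at 428, 435 and 449 CPM in shControl, 468, 526 and 563 in shIMPDH1, and 688, 656 and 532 in shIMPDH2. Each knockdown lay wholly above shControl, and MT-RNR1 rose by 0.25 in shIMPDH1 (SE 0.059, edgeR adjusted p = 0.00118) and by 0.52 in shIMPDH2 (SE 0.059, adjusted p = 6.74e-08), or 1.43-fold, of which DESeq2 called only the second (adjusted p = 0.0641 for the first). MT-RNR2 (chrM:1671-3229, plus) was at 2848, 3155 and 3179 CPM, then 3368, 3725 and 3758, then 3477, 3515 and 3280. It rose by 0.24 in shIMPDH1 (SE 0.038, adjusted p = 7.81e-06) and by 0.16 in shIMPDH2 (SE 0.038, adjusted p = 0.00119).

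Between the knockdowns MT-RNR1 was higher in shIMPDH2 by 0.27 (SE 0.059, adjusted p = 0.000459), although the lowest shIMPDH2 library lay within the shIMPDH1 range, and MT-RNR2 was not called (-0.08, adjusted p = 0.0938), though it was without shControl replicate 1 (-0.08) or shIMPDH1 replicate 1 (-0.13). The 2 rRNAs are cut from 1 precursor, yet their ratio differed: MT-RNR1 per 100 MT-RNR2 counts was 15.0, 13.8 and 14.1 in shControl, 13.9, 14.1 and 15.0 in shIMPDH1, and 19.8, 18.7 and 16.2 in shIMPDH2 (exact permutation p = 0.1 for shIMPDH2 against either group). Together the rRNAs gave 7.88, 7.12 and 6.91 counts per 100 mRNA counts in shControl, 8.13, 8.68 and 9.04 in shIMPDH1, and 10.7, 10.3 and 9.51 in shIMPDH2. The 3 groups did not overlap in this ratio.

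**Figure D4:**
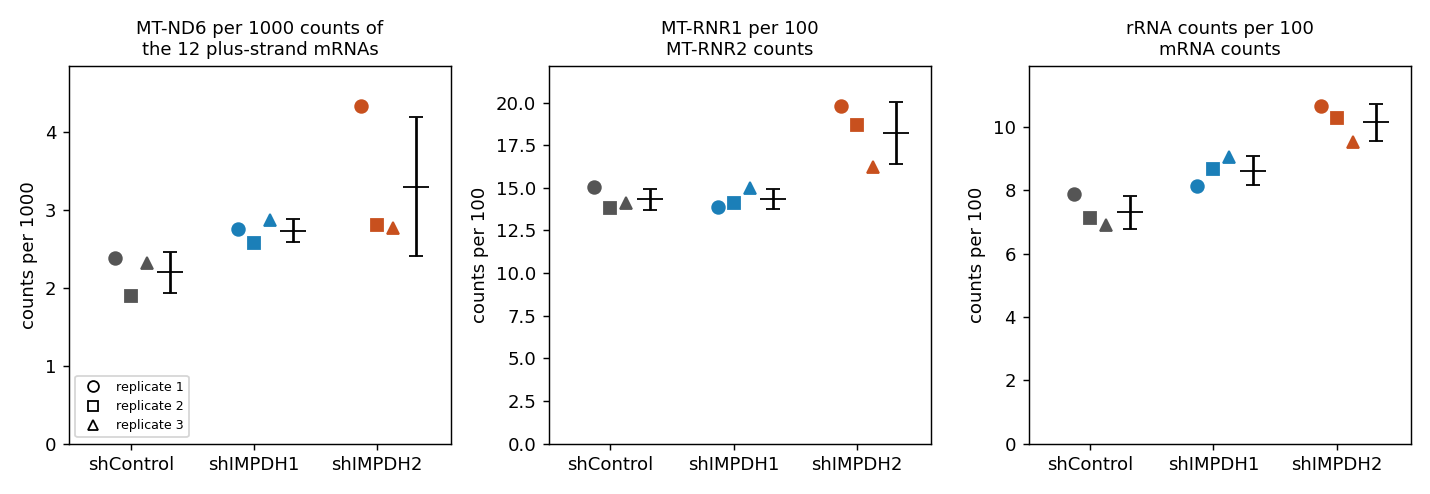
MT-ND6 counts per 1000 counts of the 12 plus-strand mRNAs (left), MT-RNR1 per 100 MT-RNR2 counts (middle) and rRNA counts per 100 mRNA counts (right) in 3 libraries of each group, with mean and SD. Both knockdowns lie above shControl for MT-ND6 per plus-strand mRNA and for rRNA per mRNA, and shIMPDH2 lies above both other groups in the middle and right panels.

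The transfer RNAs were near the floor of these libraries. Over the 9 libraries a tRNA gene had between 0 counts (MT-TG and MT-TL2) and 745 (MT-TP), while the least abundant mRNA, MT-ND6, had 54713. Summed over the 22 tRNAs the level was 5.41, 6.35 and 6.17 CPM in shControl, 7.87, 7.83 and 8.96 in shIMPDH1, and 8.87, 6.84 and 8.15 in shIMPDH2, with both knockdowns wholly above shControl (exact permutation p = 0.1 each). On the plus strand the mean sum was 2.28 CPM in shControl, 3.63 in shIMPDH1 and 3.16 in shIMPDH2. On the minus strand it was 3.70, 4.59 and 4.80 CPM, and both knockdowns were wholly above shControl on either strand. Reads of a tRNA gene can come from uncut precursors, and mature and precursor RNA cannot be told apart in gene counts. As with MT-ND6, counting by strand is not known, and minus-strand tRNAs could hold reads of the opposite strand.

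Of the 9 tRNAs tested, 3 rose in shIMPDH1 and 2 in shIMPDH2 against shControl, and none fell, where 20.6% of all genes tested rose in shIMPDH1 and 18.6% in shIMPDH2. Without shIMPDH1 replicate 3 the count in shIMPDH1 was 1, and over 9 tRNAs neither count can be set apart from these shares. The sequences of the 3 with the largest changes are given 5′ to 3′ with the anticodon in capitals, since it names the codon each one reads.
MT-TT, threonine, chrM:15888-15953, plus: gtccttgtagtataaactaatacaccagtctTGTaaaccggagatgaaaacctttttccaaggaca
MT-TE, glutamate, chrM:14674-14742, minus: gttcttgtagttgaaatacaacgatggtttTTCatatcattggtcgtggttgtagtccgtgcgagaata
MT-TP, proline, chrM:15956-16023, minus: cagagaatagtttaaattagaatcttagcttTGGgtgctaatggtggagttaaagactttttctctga
MT-TT and MT-TP stand next to each other on opposite strands beside the control region, and MT-TE borders MT-ND6 at its 5′ end on the minus strand.

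MT-TT had 34, 26 and 20 counts in shControl, 44, 61 and 63 in shIMPDH1, and 48, 45 and 51 in shIMPDH2. Neither knockdown overlapped shControl, and MT-TT rose by 1.16 in shIMPDH1 (SE 0.227, edgeR adjusted p = 0.000133), or 2.24-fold, and by 0.89 in shIMPDH2 (SE 0.232, adjusted p = 0.00320). MT-TE had 17, 28 and 23 counts, then 34, 34 and 64, then 49, 29 and 27. It rose by 1.05 in shIMPDH1 (SE 0.281, adjusted p = 0.00330), where replicate 3 was far above the others and its loss ended the call (0.72, adjusted p = 0.0625), and was at 0.66 in shIMPDH2 (adjusted p = 0.0752).

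MT-TP had 78, 62 and 64 counts in shControl, 64, 80 and 71 in shIMPDH1, and 135, 87 and 104 in shIMPDH2. Only shIMPDH2 stood clear, and MT-TP rose there by 0.71 against shControl (SE 0.166, edgeR adjusted p = 0.00117) and was higher by 0.54 than in shIMPDH1 (SE 0.164, adjusted p = 0.00883), which did not hold without shIMPDH2 replicate 1 (0.42, adjusted p = 0.0670). MT-TL1, the plus-strand leucine tRNA between MT-RNR2 and MT-ND1, had 49, 76 and 62 counts, then 79, 80 and 104, then 86, 50 and 66. It rose by 0.59 in shIMPDH1 (adjusted p = 0.00903) and was lower by 0.44 in shIMPDH2 than in shIMPDH1 (adjusted p = 0.0472). Without shControl replicate 1 or shIMPDH1 replicate 3 the rise was lost (0.46, adjusted p = 0.0573, and 0.49, adjusted p = 0.0593). The difference between the knockdowns was not called by DESeq2 (adjusted p = 0.0925), nor without replicate 2 or 3 of shControl, 1 or 3 of shIMPDH1, or 2 or 3 of shIMPDH2, with log2 values from -0.46 to -0.29.

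The 5 other tested tRNAs were MT-TI and MT-TM on the plus strand and MT-TQ, MT-TA and MT-TS1 on the minus strand. They had log2 fold changes from -0.20 to 0.51 over the 3 comparisons, with SE of 0.209 to 0.538, and none was called. The 13 tRNAs that missed the filter were not tested.

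Nuclear copies of mitochondrial DNA can take or lend reads. The copy MTATP6P1 is 98.5% identical to MT-ATP6 over 681 bases and held 13.7 to 16.5 counts per 100 MT-ATP6 counts across the 9 libraries, and MTND1P23 is 97.0% identical to part of MT-ND1 and held 6.35 to 7.44 per 100. In shIMPDH2 against shControl MTATP6P1 fell by 0.38 (SE 0.055, edgeR adjusted p = 2.74e-06) beside 0.29 for MT-ATP6, and MTND1P23 fell by 0.22 (adjusted p = 0.00776) beside 0.21 for MT-ND1. Adding the counts of MTATP6P1, MTND1P23, MTCO1P12 and MTND2P28 to their mitochondrial genes left the number of mRNAs called at 1, 12 and 9 in the 3 comparisons.

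Because the kit selects tails, nuclear RNAs that lack a long tail were set beside the rRNAs, MT-ND6 and the tRNAs, in a list drawn up after the mitochondrial values were seen. The 17 tested, such as RN7SK, RNU6-8 and SNORD17, summed to 38.9, 36.2 and 35.1 CPM in shControl, 36.7, 42.5 and 38.5 in shIMPDH1, and 39.0, 35.1 and 30.5 in shIMPDH2, so the groups overlapped. Against shControl 4 rose and 1 fell in shIMPDH1 (median log2 fold change 0.24), and 3 rose and 3 fell in shIMPDH2 (-0.14), where 20.6% and 22.8% of all genes tested rose and fell in shIMPDH1 and 18.6% and 19.9% in shIMPDH2. The median over the 2 mitochondrial rRNAs was 0.24 in shIMPDH1 and 0.34 in shIMPDH2, and over the 9 tested tRNAs it was 0.26 and 0.36. MT-ND6 was at 0.32 in each knockdown. The 17 nuclear RNAs together stood far below either rRNA in level. The part of tail selection in the mitochondrial values was not tested.

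Nuclear genes for the machinery that makes and processes these transcripts changed little in size. Of 40 such genes, all tested, 11 rose and 1 fell in shIMPDH1 against shControl (median log2 fold change 0.05), and 6 rose and 9 fell in shIMPDH2 (-0.01), or 5 and 4 without shControl replicate 2. Over all genes tested 20.6% rose and 22.8% fell in shIMPDH1, and 18.6% and 19.9% in shIMPDH2, to which the shIMPDH2 counts were close. The largest change in either was in HSD17B10, a subunit of the mitochondrial RNase P that cuts tRNAs from the precursors at their 5′ ends. It was at 64.9, 66.1 and 64.5 CPM in shControl, 121, 123 and 123 in shIMPDH1, and 106, 113 and 107 in shIMPDH2. No library of either knockdown came near the controls, and HSD17B10 rose by 0.91 (SE 0.030, edgeR adjusted p = 6.01e-19) and by 0.74 (SE 0.030, adjusted p = 5.87e-17).

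Other factors moved by less. GRSF1, an RNA-binding protein of mitochondrial RNA granules, rose by 0.19 in shIMPDH1, as did PTCD2 by 0.31 and PTCD3, a protein of the mitochondrial ribosome's small subunit, by 0.14. In shIMPDH2 against shControl NSUN4, an rRNA methyltransferase, and TRMT5, a tRNA methyltransferase, each rose by 0.18, and ELAC2, which cuts tRNA 3′ ends, fell by 0.11. Between the knockdowns 4 of the 40 were higher and 15 lower in shIMPDH2 (median -0.06), where 21.7% of all genes tested were higher and 22.2% lower. LRPPRC, which stabilises mitochondrial mRNAs and promotes their polyadenylation, was at 268 CPM in each of the 3 shIMPDH1 libraries and 238, 237 and 232 in shIMPDH2, -0.19 (SE 0.025, edgeR adjusted p = 8.12e-07). PTCD3 was at -0.20, GTPBP3, which modifies tRNAs, at -0.25 and HSD17B10 at -0.18, all called. The RNA polymerase POLRMT and the transcription factor TFAM, named for their role after their values were seen, fell by 0.11 and 0.08 in shIMPDH2 against shControl (edgeR adjusted p = 0.0147 and 0.0421). Neither was called in shIMPDH1 (0.04 and 0.05). POLRMT was at 109, 103 and 100.9 CPM in shControl and 91.2, 98.7 and 100.6 in shIMPDH2, so the groups barely parted. TFAM was at 98.5, 105 and 106 CPM and then 99.4, 96.4 and 97.9, with an overlap at shControl replicate 1.

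Genes for copying mitochondrial DNA and supplying its nucleotides numbered 31, all tested. In shIMPDH1 9 rose and 8 fell against shControl (median 0.00), or 5 and 6 without shIMPDH1 replicate 3, in shIMPDH2 7 rose and 8 fell (-0.01), and between the knockdowns 5 were higher and 9 lower in shIMPDH2 (-0.02). Over all genes tested, the shares higher and lower were 20.6% and 22.8%, 18.6% and 19.9%, and 21.7% and 22.2% in the same order. DGUOK, the mitochondrial kinase that salvages deoxyguanosine and deoxyadenosine, was at 46.7, 47.9 and 51.3 CPM in shControl, 51.6, 51.0 and 53.2 in shIMPDH1, and 38.8, 39.2 and 37.9 in shIMPDH2. The shIMPDH2 libraries were below all others, and DGUOK fell by 0.33 against shControl (SE 0.038, edgeR adjusted p = 6.05e-08) and was at -0.43 against shIMPDH1. ABAT, which also serves mitochondrial nucleotide metabolism, fell by 0.34 and SUCLG1, a subunit of succinyl-CoA ligase, by 0.18 in shIMPDH2, while the primase PRIMPOL rose by 0.27. In shIMPDH1 the DNA polymerase POLG rose by 0.24, the ligase LIG3 by 0.21 and the coactivator PPARGC1A by 0.55, and GABPA, a transcription factor of respiratory genes, fell by 0.24. Between the knockdowns PPARGC1A was at -0.83 and its partner ESRRA at 0.38 in shIMPDH2 relative to shIMPDH1, and PRIMPOL at 0.58, all called. Whether any of these genes bears on the mitochondrial transcripts was not tested.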

How the data were processed

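The deposited file holds gene-level read counts, whole numbers that the authors had not normalised, for 58684 genes in 9 libraries. Trim Galore, cutadapt, STAR, featureCounts and the build hg38 are named in the submitters' processing notes; versions, the annotation release, the strand setting and the treatment of reads with several positions were not given in these sources. Counts were analysed in R 4.3.3 with edgeR 4.0.16: the default filter by group left 17396 genes, libraries were scaled with TMM (factors 0.987 to 1.02), and 1 quasi-likelihood model of the 3 groups was fitted to all 9 libraries (common biological coefficient of variation 0.0268), with p-values adjusted by Benjamini-Hochberg across the tested genes and calls at an adjusted p under 0.05. SE is the absolute log2 fold change over the root of the F value. Only the edgeR fit, for shIMPDH2 against shControl, was tried on simulated counts. Changes in genes of low counts, the shares, the ratios and the permutation tests were not tried in this way.

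Shares and ratios were computed per library and compared by exact two-sided permutation tests in SciPy 1.17.1. Alternatives were DESeq2 1.42.0, other scalings, no filter, only the groups compared, a replicate block and leaving out libraries. Coordinates, strands and sequences came from GENCODE 29 on GRCh38 and were matched by symbol for all 37 genes; identities were computed with Biopython 1.88. By rule, every mRNA, rRNA and tested tRNA is named, and in each of 2 lists of nuclear genes up to 4 called genes of smallest p in a comparison. The members and lists were chosen with earlier results of these data known.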

Additional observations from a re-analysis of the deposited data

How the results depend on the processing

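Under the alternatives 1221 values of single mitochondrial transcripts were recomputed. Of these, 1141 kept their side of the threshold and, apart from 31 values called in neither case, their direction. A call was lost by 25 and gained by 45, and 10 changed sign with a call in either fit. Scaling by DESeq2's size factor method (RLE) or from nuclear genes changed no count of mRNAs called. The number of mRNAs called in shIMPDH1 against shControl was 1, but 0 with DESeq2, 7 with no filter on low counts (3 higher, 4 lower) and 3 with the replicate block. With libraries left out it was 1 to 11, with 9 without shControl replicate 1 and 5 without shControl replicate 3. The 11 came without shControl replicate 1 and shIMPDH2 replicate 1 together, a fit chosen after seeing the data that the ranges of calls include. In shIMPDH2 the number of mRNAs called was 12 against shControl (10 to 13 with libraries left out) and 9 against shIMPDH1 (9 to 13). Against shIMPDH1 it was also 8 with DESeq2, 12 with no filter, and 11 with only the groups compared or with the replicate block. Shares of all genes called were not tallied for these alternatives. Deviations of same-numbered libraries from their group means were weakly correlated (r from -0.0861 to 0.0888). For 0 of 9 libraries was the same number the best match in both other groups. What the numbers stand for is not stated, and with 3 libraries per group these values cannot settle whether they mark shared cultures or days.

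With libraries left out singly, MT-ND2 ran from -0.0641 to 0.129, MT-ND4L from -0.0904 to 0.0794, MT-ND4 from -0.0925 to 0.0994 and MT-ND5 from -0.0529 to 0.104 in shIMPDH1 against shControl, lowest without shControl replicate 1 and highest without shControl replicate 3. MT-CO2 likewise ran from -0.0950 to 0.0668 in shIMPDH2 against shControl, and MT-ND6 from -0.225 without shIMPDH2 replicate 1 to 0.111 without shIMPDH2 replicate 3 in shIMPDH2 against shIMPDH1. Leaving out shControl replicate 1 and shIMPDH2 replicate 1 together, chosen after seeing the data, gave 11 mRNAs called in shIMPDH1 (10 lower). In that fit MT-ND2 was at -0.0642, MT-ND4L at -0.0904, MT-ND4 at -0.0926 and MT-ND5 at -0.0529 in shIMPDH1 against shControl. MT-CO2 stood at -0.0710 in shIMPDH2 against shControl, and MT-ND6 at -0.225 in shIMPDH2 against shIMPDH1. Adding the counts of 4 nuclear copies, also chosen then, moved no count of calls. The share of counts on the mRNAs in shIMPDH1 minus shControl, -0.044, was 0.017 with rRNAs and tRNAs included, 0.054 without shControl replicate 2, 0.149 without shControl replicate 3 and -0.336 without shControl replicate 1; in shIMPDH2 it ran from -1.06 to -0.574 against shControl and -0.753 to -0.683 against shIMPDH1. The MT-ND6 log2 ratio ran from 0.22 to 0.38, 0.35 to 0.67 and 0.03 to 0.35 in the 3 comparisons. Genes called for transcription and RNA processing ran from 9 to 13, 9 to 15 and 16 to 20 (9 in shIMPDH2 without shControl replicate 2), and for replication and nucleotide supply from 11 to 17, 10 to 15 and 11 to 15 (11 in shIMPDH1 without shIMPDH1 replicate 3). The cause of these shifts was not tested. Over the 3 comparisons the SE of the log2 fold change was 0.164 to 0.538 for the 9 tested tRNAs, with 76 to 745 counts each over the 9 libraries, and 0.0376 to 0.0961 for the mRNAs, with at least 54713.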

Other observations

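Counts on further nuclear copies were low and uneven among replicates. MTCO3P12, 98.2% identical to MT-CO3 over 547 bases, was at 5.19 CPM in shIMPDH1 replicate 1 and 3.51 in shIMPDH2 replicate 2, and at 1.11 to 2.02 in the other 7 libraries. MTCO2P12, 98.0% identical to MT-CO2, was at 4.32 and 4.33 CPM in the same 2 libraries and at 1.06 to 1.72 in the others. MT-CO3 and MT-CO2 themselves did not stand apart in those libraries, at 5008 and 4335 CPM for MT-CO3 and 5729.6 and 5628 CPM for MT-CO2. MTND4P12 was likewise highest in both, at 2.74 and 1.56 CPM.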
